A study of Mus musculus with 7 samples.

Results

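The 10 genes described here mark the cells that wrap blood vessels. They were chosen by name as pericyte and smooth muscle markers, and all 10 were measured, out of 12393 genes on the array. That choice, and the choice of the gene lists below, was made with earlier results of these data known. Each gene is represented by its brightest probe set over the 7 arrays, a probe set being the group of short probes that reports 1 transcript, and the 10 genes had 20 probe sets in all. The cells came from mice that carried both OsxCre-mCherry and OcnCre-Topaz, so every group shared both transgenes and the tamoxifen treatment. In the Osx+ group (mCherry, 4 arrays) cells were marked red through the promoter of osterix, a factor that commits progenitors to the bone lineage. In the Ocn+ group (Topaz, 3 arrays) cells were marked green through the promoter of osteocalcin, a protein of mature osteoblasts. Bone marrow stromal cells were sorted by flow cytometry 6 days after tamoxifen from animals aged 4 to 6 weeks, and cells carrying both colours were not analysed here. Both colours can be sorted from 1 animal, and the labels do not say which arrays share an animal, so a p-value here reflects no more than the spread among these samples, and that spread may be technical.

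Smooth muscle cells surround arteries and contract through actin, smooth muscle myosin and their regulators. Pericytes sit on capillaries and small arterioles and are recognised by surface and signalling proteins more than by a contractile apparatus. In marrow, cells around vessels are part of the niche of blood stem cells, and osteoblasts and stromal fibroblasts can also make smooth muscle actin and its partners. No single gene of the list therefore identifies a pericyte or a smooth muscle cell, and in sorted pools fewer cells of a type and less RNA per cell cannot be told apart.

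The markers did not behave as 1 block. Rgs5 and Mcam, a signalling and a surface marker of pericytes, were 2.61-fold and 3.37-fold brighter in Ocn+ cells, while the surface proteoglycan Cspg4 was 1.50-fold brighter in Osx+ cells. The 6 contractile genes differed by -0.61 to 0.09 on the log2 scale, and the intermediate filament gene Des by 0.39. None of the 10 markers passed the test over all genes in limma (adjusted p under 0.05), where 0 of 12393 genes, or 0%, were called. At an unadjusted p under 0.05, limma gave 2 of the 10 markers, Rgs5 and Mcam, both higher in Ocn+ cells, against 5.31% of all genes (3.48% higher and 1.83% lower). The arrays of the groups did not overlap for 1 of the 10, Mcam, against 6.90% of all genes (4.37% with the Ocn+ arrays above). The median difference over the 10 markers was -0.11, and over all genes it was 0.02. The sign of the markers' median depended on single arrays: it was 0.03 without Ocn+ replicate 2, 0.02 without Osx+ replicate 1 and 0.12 without Osx+ replicate 3, and -0.21 without Ocn+ replicate 1. Within the high-Xist arrays, a set described below, it was 0.07. A difference is always Ocn+ minus Osx+ in log2 signal.

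**Figure D1:**
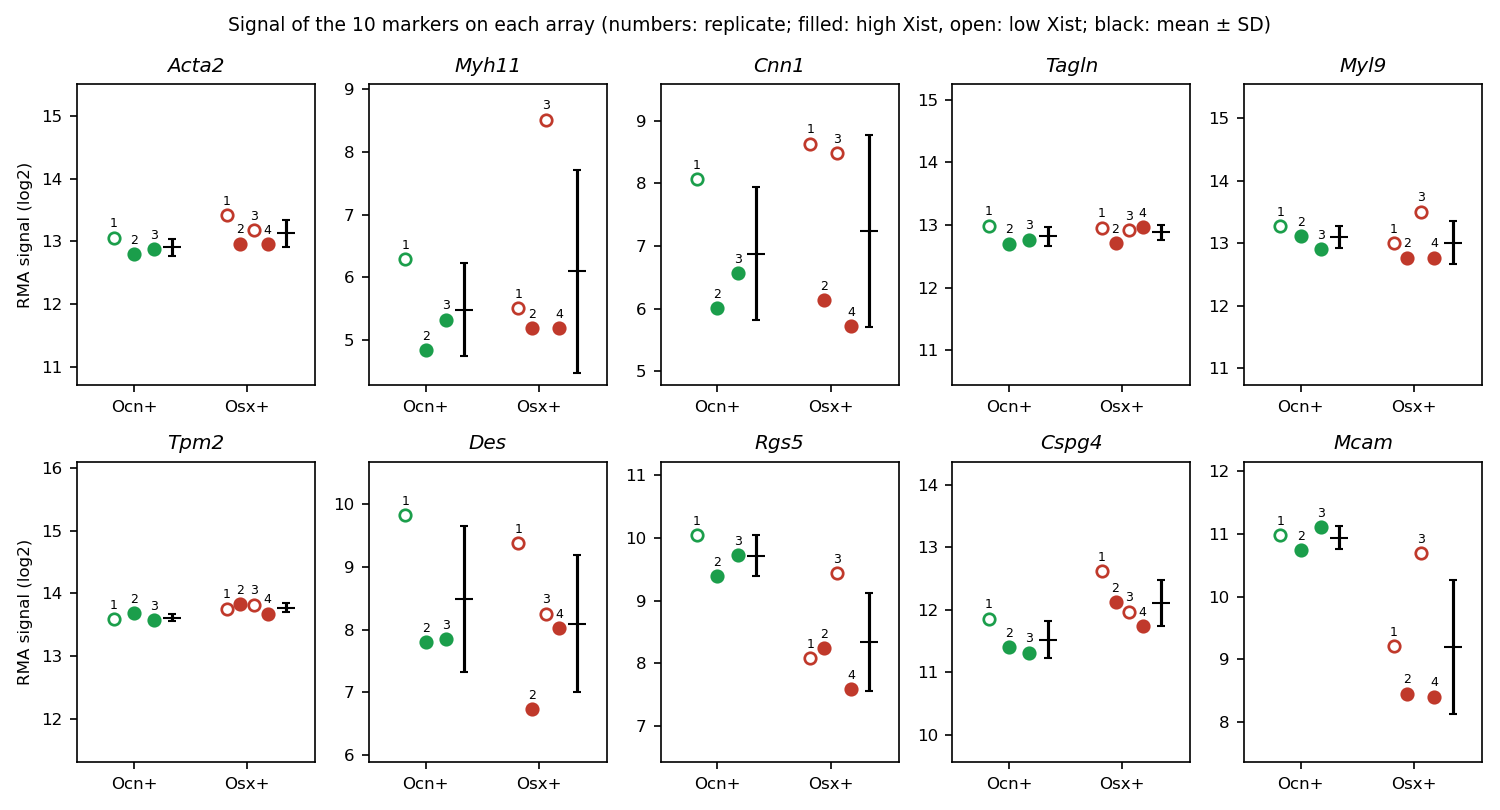
Log2 signal (y axis) of each of the 10 markers on every array, grouped as Ocn+ and Osx+ (x axis), with the replicate number above each point and the mean ± SD in black. Filled points are arrays with high Xist signal and open points arrays with low Xist signal, and every panel spans the same number of log2 units. Mcam is the panel in which the groups do not overlap, Tagln and Tpm2 are nearly flat, and Myh11 has a single high point, Osx+ replicate 3 at 8.52.

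Before the genes are taken in turn, 3 features of the arrays bear on them. Sp7, the gene of osterix, stood between 12.15 and 12.93 on all arrays, and the 11 measured osteolineage markers had an array mean of 11.71 to 13.01, with a median difference of 0.12. Their differences ran from -0.13 to 2.61, with 8 above 0 and 3 below. The osteocalcin genes (Bglap, Bglap2 and Bglap3), Runx2 and Spp1 were on the list but not among those measured. The arrays fell into 2 sets by Xist, the RNA of the inactive X chromosome: Ocn+ replicate 1 and Osx+ replicates 1 and 3 had a log2 signal of 4.87 to 5.79, and the other 4 arrays 12.33 to 12.96. Values within each set are given below where they matter, and the low set holds a single Ocn+ array. Marker lists of other cells differed between the groups to unequal degrees, and over all genes 52.7% had a difference above 0. The 20 endothelial markers were all higher in Ocn+ cells in the mean, with a median difference of 2.30 and array means of 9.49 to 9.80 against 6.41 to 9.11. The 14 measured neutrophil markers had a median difference of 1.70 (12 above 0), the 10 osteoclast markers 0.83 (10 above 0) and the 19 macrophage markers -1.08 (16 below 0). The 13 stromal and fibroblast markers were nearly level, at 0.11 (9 above 0). None of these lists had a gene that passed over all genes in limma. An unadjusted p under 0.05 in limma was reached by 13 of the 20 endothelial, 8 of the 14 neutrophil and 5 of the 10 osteoclast markers, all higher in Ocn+ cells. It was reached by 7 of the 19 macrophage markers, all lower in Ocn+ cells. The osteolineage list had 1 of 11 and the stromal list 0 of 13, against 5.31% of all genes.

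Rgs5 encodes a regulator of G protein signalling that is a widely used pericyte marker. Its log2 signal was 10.05, 9.39 and 9.72 in Ocn+ replicates 1 to 3 and 8.08, 8.24, 9.44 and 7.59 in Osx+ replicates 1 to 4. The groups overlapped only through Osx+ replicate 3, which lay just above Ocn+ replicate 2. The means were 9.72 ± 0.33 (SD, n = 3) and 8.34 ± 0.78 (SD, n = 4), so they differed by 1.38 (SE 0.43, 95% interval 0.37 to 2.39). Rgs5 did not pass over all genes (limma adjusted p = 0.864, unadjusted p = 0.0142). All 4 probe sets of Rgs5 gave a difference above 0. On the probe set of largest variance the Ocn+ arrays stood at 8.62, 7.37 and 7.85 and the Osx+ arrays at 5.63, 6.39, 5.05 and 5.93, a difference of 2.19 without overlap. On another the Ocn+ arrays (9.34, 9.12 and 9.86) also lay above all Osx+ arrays (7.79, 8.20, 8.64 and 7.98). The dimmest of the 4 differed by 1.26 and overlapped. The probe set of largest variance belongs to a design class (suffix x) whose probes can also match other transcripts. Within the high-Xist arrays the Rgs5 difference was 1.64, and within the low-Xist arrays 1.28.

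Mcam encodes an adhesion molecule, CD146, found on pericytes, on marrow stromal progenitors and on endothelium. Its log2 signal was 10.99, 10.74 and 11.11 in Ocn+ cells and 9.21, 8.45, 10.70 and 8.40 in Osx+ cells, by replicate number. All 3 Ocn+ arrays lay above all 4 Osx+ arrays, but Osx+ replicate 3 came within a few hundredths of Ocn+ replicate 2. The means were 10.95 ± 0.19 (SD, n = 3) and 9.19 ± 1.07 (SD, n = 4), so they differed by 1.75 (SE 0.55, 95% interval 0.46 to 3.05). Mcam did not pass over all genes (limma adjusted p = 0.864, unadjusted p = 0.0147), and its 2-sided exact permutation p was 0.0571, a value that no gene can go below with 3 and 4 arrays. It passed with arrays weighted by their fit (difference 2.16, limma adjusted p = 0.0491) and within the 4 high-Xist arrays alone (difference 2.50, limma adjusted p = 0.0474). The weight was 6.02 for Ocn+ replicate 2 and 0.35 for Osx+ replicate 3, the Osx+ array nearest to the Ocn+ arrays. The high-Xist arrays were 2 Ocn+ against 2 Osx+. Over all genes these settings called 97 and 19 genes. Within the 3 low-Xist arrays, 1 Ocn+ against 2 Osx+, the difference was 1.03, a value too thinly replicated to be read as a test. Without Osx+ replicate 3 it was 2.26 (limma adjusted p = 0.0958). Mcam has 1 probe set, so no other could be set beside it.

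Rgs5 and Mcam followed each other more closely over the 7 arrays than any other of the 45 pairs of markers, with a Pearson r of 0.96. This is a description over 7 points that share 2 groups and the same normalization. Both were high in the 3 Ocn+ arrays and in Osx+ replicate 3, the 4 arrays with an endothelial list mean of 9.11 or more, and low in the 3 arrays with an endothelial list mean of 7.90 or less. The part of endothelial cells in the Rgs5 and Mcam differences was not tested. The genes most like Rgs5 over the 7 arrays, among 4210 genes with an SD of at least 0.5, were Vwa1, F11r, Ppargc1b, Adgrv1 and Ephx2, with a Pearson r of 0.98 for the first and 0.97 for the last. Mcam was in place 11 of that order.

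**Figure D2:**
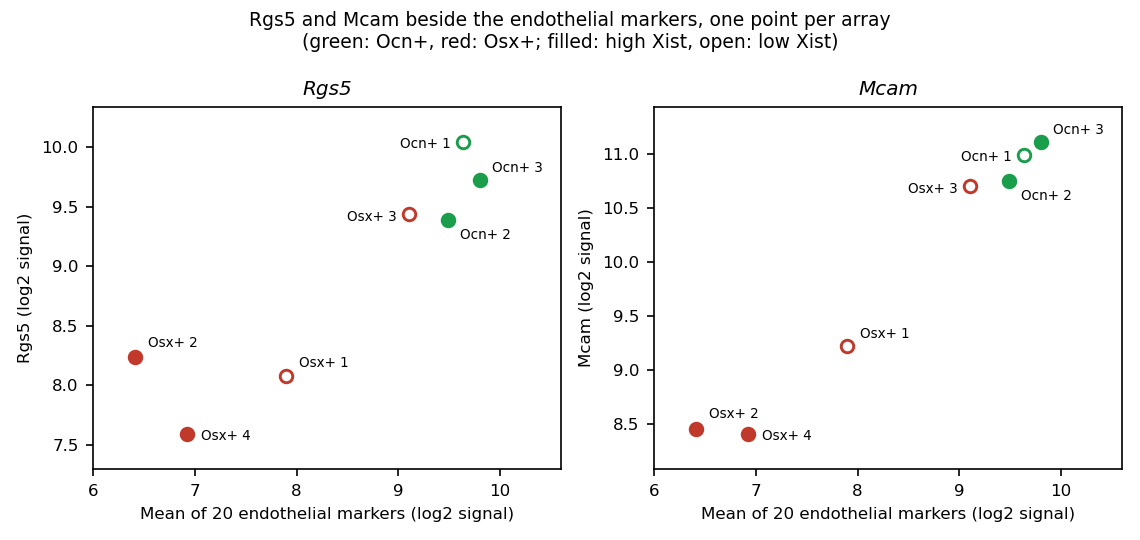
Log2 signal of Rgs5 (left) and Mcam (right) on the y axis against the mean log2 signal of the 20 endothelial markers on the x axis, 1 point per array, Ocn+ in green and Osx+ in red, filled for high and open for low Xist signal. Osx+ replicate 3, at an endothelial mean of 9.11, lies beside the 3 Ocn+ arrays in both panels, apart from the other 3 Osx+ arrays.

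The sequences before the start sites of these genes are shown for the pair whose signals moved together, Rgs5 and Mcam, and for Myl9. Myl9 was the 1 marker whose window held an exact CArG box, the sequence that serum response factor binds in smooth muscle genes. Each window is the 250 bases before the annotated gene start on its own strand, from RefSeq on GRCm38.p6, and capitals mark a motif match. All 3 lie on the plus strand, Rgs5 at chr1:169655251-169655500, Mcam at chr9:44134408-44134657 and Myl9 at chr2:156775214-156775463.
Rgs5: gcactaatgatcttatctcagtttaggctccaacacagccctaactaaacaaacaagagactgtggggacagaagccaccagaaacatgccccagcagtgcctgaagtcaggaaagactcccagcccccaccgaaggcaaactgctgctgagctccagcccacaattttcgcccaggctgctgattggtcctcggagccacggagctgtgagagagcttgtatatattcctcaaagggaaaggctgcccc
Mcam: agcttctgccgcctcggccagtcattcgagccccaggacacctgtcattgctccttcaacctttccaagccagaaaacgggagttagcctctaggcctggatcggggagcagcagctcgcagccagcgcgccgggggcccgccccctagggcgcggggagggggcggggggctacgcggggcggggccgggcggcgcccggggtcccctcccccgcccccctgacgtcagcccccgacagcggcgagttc
Myl9: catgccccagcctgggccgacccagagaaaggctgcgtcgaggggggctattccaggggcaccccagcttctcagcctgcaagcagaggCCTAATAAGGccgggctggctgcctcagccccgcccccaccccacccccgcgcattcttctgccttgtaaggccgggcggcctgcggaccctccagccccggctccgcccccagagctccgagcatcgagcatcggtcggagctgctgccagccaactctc

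The motifs searched on both strands were the CArG box, TGGGAA (the core bound by the Notch effector Rbpj) and GGAATG (the core bound by Tead factors), of which the last 2 can overlap in 4 bases. The CArG box was searched as an exact match, with only A or T between CC and GG. Variants with another base in that stretch were not counted, so a window without a match may still hold one. Of the 10 markers 8 had a window in the table, and Tagln and Myh11 did not. An exact CArG box was found in 1 of the 8, Myl9, as CCTAATAAGG from 161 to 152 bases before the start, and in 1.47% of all 32851 windows. TGGGAA was found in 1 of the 8, Acta2 (27 to 22 bases before the start), and in 21.6% of all windows. GGAATG was also found in Acta2 (146 to 141 bases before the start), again 1 of the 8, and in 12.6% of all windows. The windows of Rgs5 and Mcam printed above held none of the 3 motifs in these letters.

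Cspg4 encodes the proteoglycan NG2, a surface marker of pericytes around arterioles that is also made by cartilage and bone progenitors. It was the marker that stood lower in Ocn+ cells by the largest margin relative to its error. Its log2 signal was 11.86, 11.40 and 11.31 in Ocn+ cells and 12.62, 12.12, 11.97 and 11.74 in Osx+ cells. Only Ocn+ replicate 1 and Osx+ replicate 4 were out of order, so the groups overlapped narrowly. The means were 11.52 ± 0.29 (SD, n = 3) and 12.11 ± 0.37 (SD, n = 4), a difference of -0.59 (SE 0.25, 95% interval -1.19 to 0.01). Cspg4 did not pass (limma adjusted p = 0.953, unadjusted p = 0.0526). Its other probe set gave a difference of -0.64, with Ocn+ arrays at 10.18, 9.59 and 9.56 and Osx+ arrays at 11.02, 10.27, 10.27 and 10.11. Over the 7 arrays Cspg4 ran with Acta2 (Pearson r = 0.89) and against Mcam (r = -0.52). The 3 pericyte markers of this list therefore did not share a direction.

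**Figure D3:**
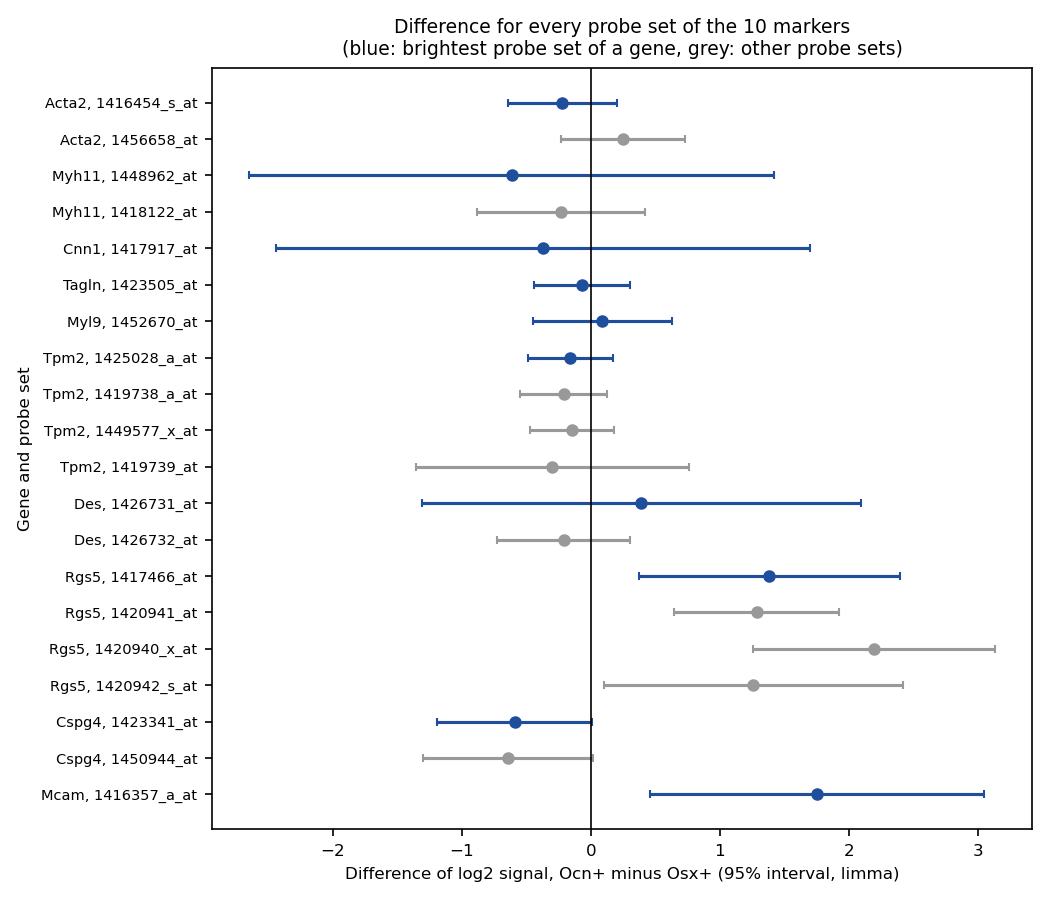
Difference of log2 signal between Ocn+ and Osx+ cells (x axis, with 95% intervals from a limma fit over all named probe sets) for each of the 20 probe sets of the 10 markers (y axis), blue for the brightest probe set of a gene and grey for the others. The 4 Rgs5 probe sets and the Mcam probe set lie to the right of 0, both Cspg4 probe sets lie to the left, and the intervals of the contractile genes include 0.

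Among the contractile genes, those with the brightest probe sets were nearly level. Acta2, smooth muscle actin, stood at 13.06, 12.79 and 12.87 in Ocn+ cells and 13.42, 12.96, 13.18 and 12.96 in Osx+ cells. The groups overlapped through Ocn+ replicate 1, and the difference was -0.22 (SE 0.18, 95% interval -0.64 to 0.20, limma adjusted p = 0.999). A second, dim Acta2 probe set at 5.23 to 6.05 had the other sign (0.25), and the mean of both gave 0.014. The brighter one belongs to a design class (suffix s) whose probes can be shared with transcripts of related genes, and Actg2, the enteric smooth muscle actin, is such a relative.

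Tagln encodes transgelin, an actin-binding protein of the calponin family and an early marker of the smooth muscle programme. It stood at 12.99, 12.70 and 12.76 in Ocn+ cells and 12.95, 12.71, 12.92 and 12.96 in Osx+ cells, with the arrays of both groups intermingled. The difference was -0.07 (SE 0.16), and its 95% interval of -0.43 to 0.30 does not reach 1 log2 unit either way. That interval reflects only the spread among these samples. Myl9, the regulatory light chain whose phosphorylation starts contraction, stood at 13.27, 13.11 and 12.91 against 13.00, 12.77, 13.50 and 12.77. Osx+ replicate 3 was the highest array for Myl9, and the difference was 0.09 (SE 0.23, 95% interval -0.44 to 0.62).

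Tpm2 encodes beta-tropomyosin, which lies along actin filaments in smooth and skeletal muscle. It stood at 13.59, 13.68 and 13.57 in Ocn+ cells and 13.76, 13.83, 13.82 and 13.67 in Osx+ cells. Only Ocn+ replicate 2 and Osx+ replicate 4 were out of order, by about a hundredth of a log2 unit. The difference was -0.16 (SE 0.14, 95% interval -0.48 to 0.16), and all 4 Tpm2 probe sets had a difference below 0, from -0.30 to -0.14. On 1 of them the 3 Ocn+ arrays (13.15, 13.22 and 13.23) lay below the 4 Osx+ arrays (13.42, 13.28, 13.30 and 13.37). Of the 10 markers Tpm2 varied least, by 0.26 log2 units from the lowest array to the highest.

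The markers of fully differentiated smooth muscle varied far more within a group than between groups. Myh11, the smooth muscle myosin heavy chain, stood at 6.29, 4.84 and 5.33 in Ocn+ cells and 5.51, 5.19, 8.52 and 5.18 in Osx+ cells. Osx+ replicate 3 was more than 2 log2 units above every other array. The difference was -0.61 (SE 0.86, 95% interval -2.65 to 1.42), and without that array it was 0.19, so 1 library set its sign. The other Myh11 probe set did not show the high value, with 4.89 in Osx+ replicate 3 and 5.14 to 5.72 in the other Osx+ arrays. Cnn1, calponin 1, an actin-binding inhibitor of myosin, stood at 8.06, 6.00 and 6.56 in Ocn+ cells and 8.63, 6.13, 8.48 and 5.72 in Osx+ cells. Its 3 high arrays were the 3 of low Xist signal, from both groups, and the difference was -0.37 (SE 0.88, 95% interval -2.44 to 1.70). The Cnn1 difference became 0.10 without Osx+ replicate 1, 0.07 without Ocn+ replicate 2, 0.05 without Osx+ replicate 3 and 0.014 with the Xist set in the model. Whether the low Myh11 values lie above background cannot be read from these values, which come without detection calls.

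Des encodes desmin, an intermediate filament of smooth, skeletal and heart muscle that pericytes also carry. It stood at 9.83, 7.80 and 7.85 in Ocn+ cells and 9.38, 6.73, 8.26 and 8.02 in Osx+ cells. Replicate 1 of each group was the highest array of its group, and the groups overlapped widely. The difference was 0.39 (SE 0.72, 95% interval -1.31 to 2.09). Leaving out Ocn+ replicate 1 turned it to -0.28, and leaving out Osx+ replicate 2 to -0.06. The second Des probe set, dim at 3.70 to 4.45, differed by -0.21. The mean of the skeletal muscle markers moved with Des. Over the 24 on the list it was 8.19 in Ocn+ replicate 1 and 8.06 in Osx+ replicate 1, and 6.59 to 7.13 in the other 5 arrays. Acta1, the skeletal muscle actin, named after its values were seen, stood at 11.52 and 11.34 in these 2 arrays and at 8.63 to 10.20 in the other 5. Not every gene of the list peaked in these 2 arrays. Ttn was highest in Osx+ replicate 4 (6.45), and Ryr1 (7.89), Myh2 (6.00) and Myh1 (5.38) were highest in Osx+ replicate 3. The part of the skeletal muscle markers in the Des signal was not tested. Between the groups the skeletal muscle list had a median difference of 0.10, with 16 of 24 genes above 0 and none at an unadjusted p under 0.05 in limma. The 3 of smallest p were Myog (1.34, SE 0.92), Ttn (-0.36, SE 0.25) and Pax7 (-0.44, SE 0.40). Without replicate 1 of both groups, an alternative added after seeing the data, the Des difference was 0.15 and that of Myh11 -1.21. In the same fit the differences were 1.13 for Rgs5, 1.74 for Mcam and -0.59 for Cspg4.

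**Figure D4:**
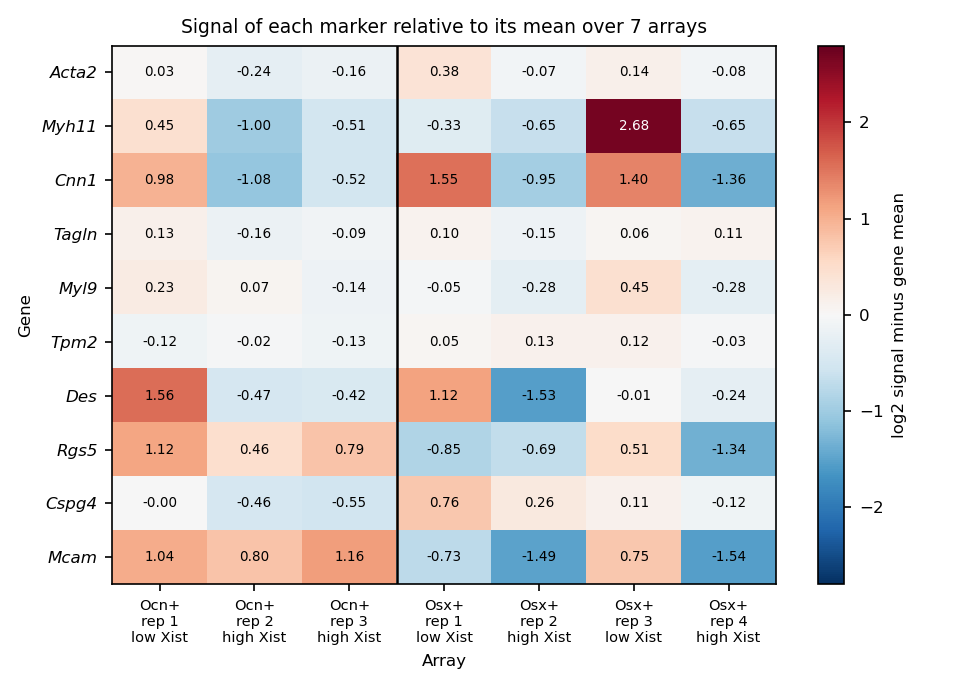
Log2 signal of each of the 10 markers (rows) on each of the 7 arrays (columns, Ocn+ left of the black line, Osx+ right) minus that gene's mean over the arrays, from blue (lower) to red (higher), with the value printed in each cell. Rgs5 and Mcam are positive in the 3 Ocn+ arrays and in Osx+ replicate 3, Cnn1 is positive in the 3 low-Xist arrays, and Acta2, Tagln and Tpm2 stay pale throughout.

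The Xist sets separated more of the markers than the sort did, as they did over all genes (34.3% against 6.90%). The 3 low-Xist arrays lay above all 4 high-Xist arrays for 4 of the 10 markers, Acta2, Myh11, Cnn1 and Des, and below them for 0. Over all genes the 2 sets did not overlap for 34.3%, with the low-Xist arrays above for 21.4%. The count of 4 of 10 is near the first share and above the second, and it was not tested. For Acta2 the low-Xist arrays ran from 13.06 to 13.42 and the high-Xist arrays from 12.79 to 12.96. For Cnn1 the ranges were 8.06 to 8.63 and 5.72 to 6.56. The genes most like Acta2 over the 7 arrays, among 4211 genes with an SD of at least 0.5, were Col26a1, Duoxa1, Vamp1, Wnt7b and Zfp239, with a Pearson r of 0.99 for the first and 0.97 for the last. Cnn1 was in place 188 of that order (r = 0.85) and Myh11 in place 1475 (r = 0.44).

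The wider contractile apparatus differed little. Of 30 further contractile and adhesion genes of smooth muscle 22 were measured, 16 with a difference below 0 and 6 above (52.7% of all genes were above), and the median was -0.14 (all genes 0.02). None passed over all genes in limma, and 1 of the 22, Actg2, had an unadjusted p under 0.05, a share near the 5.31% of all genes. Actg2 stood at 9.61, 9.28 and 9.63 in Ocn+ cells and 10.43, 10.18, 10.38 and 9.99 in Osx+ cells. All 3 Ocn+ arrays lay below the Osx+ arrays, and the difference was -0.73 (SE 0.18, limma adjusted p = 0.703). Vcl, vinculin of adhesion plaques, differed by -0.32 (SE 0.18) and Fhl1, a muscle LIM protein, by -0.30 (SE 0.19). The Ocn+ arrays lay below the Osx+ arrays for 3 of the 22 genes, Actg2, Vcl and Cnn3 (named after its values were seen), against 2.53% of all genes, and above them for 0. The list mean was highest in Osx+ replicate 3 (10.15), and 9.62 to 9.78 in the other 6 arrays.

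Regulators of the smooth muscle programme were evenly split. Of 18 genes 17 were measured, 9 above 0 and 8 below, with a median difference of 0.01. At an unadjusted p under 0.05, limma gave 4 of the 17, 3 higher and 1 lower in Ocn+ cells, against 5.31% of all genes, and none passed over all genes. Heyl, a Notch target of mural cells, stood at 8.27, 8.10 and 7.98 in Ocn+ cells and 5.69, 6.15, 7.39 and 6.69 in Osx+ cells, without overlap and again with Osx+ replicate 3 nearest. Its difference was 1.64 (SE 0.39, limma adjusted p = 0.689). Foxc2, a forkhead factor of vessel development, differed by 0.65 (SE 0.23), Hey1 (named after its values were seen) by 0.84 (SE 0.31) and Mrtfb, a coactivator of serum response factor, by -0.57 (SE 0.21). Srf itself differed by 0.05 (SE 0.27) and Myocd, the smooth muscle coactivator, by -0.59 (SE 0.76), both named after their values were seen.

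Most other pericyte genes had a group difference of the same sign as Rgs5 and Mcam, some of them near 0. Of 26 genes 24 were measured, and 21 had a difference above 0, where over all genes 52.7% did. The median difference was 0.65. None passed over all genes in limma, and 3 of 24 had an unadjusted p under 0.05, all higher in Ocn+ cells (3.48% of all genes). Kcnj8 and Abcc9 encode the pore and the sulphonylurea receptor of the potassium channel of mural cells. Kcnj8 stood at 10.70, 9.24 and 9.46 in Ocn+ cells and 8.61, 6.75, 9.50 and 6.52 in Osx+ cells, a difference of 1.95 (SE 0.79, limma adjusted p = 0.935). Abcc9 stood at 7.06, 6.76 and 7.75 against 4.41, 5.53, 6.96 and 6.11, a difference of 1.44 (SE 0.58, limma adjusted p = 0.935). In both genes Osx+ replicate 3 was the highest Osx+ array and the one that overlapped the Ocn+ arrays. Adcy3, an adenylate cyclase, differed by 0.65 (SE 0.20) and did not overlap. The receptor Pdgfrb, through which endothelium recruits pericytes, was nearly level, with 12.25, 11.83 and 11.98 in Ocn+ cells and 12.04, 11.14, 12.39 and 11.56 in Osx+ cells. Its difference was 0.24 (SE 0.31), and like Higd1b (1.37, SE 0.60), Anpep (-0.61, SE 0.37) and Cox4i2 (-0.85, SE 0.37) it is named after its values were seen. A choice of 6 listed genes that endothelium also makes (Pdgfb, Gja4, Col4a1, Col4a2, Lama4 and Ednrb) was set aside. The other 18 were not checked for this. Of those 18, 16 were above 0, with a median of 0.62, and the part of endothelial cells was not tested. The list mean was 9.11 to 9.53 in Ocn+ cells and 8.38 to 9.43 in Osx+ cells, highest among the latter in replicate 3, as were the endothelial and contractile list means.

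**Figure D5:**
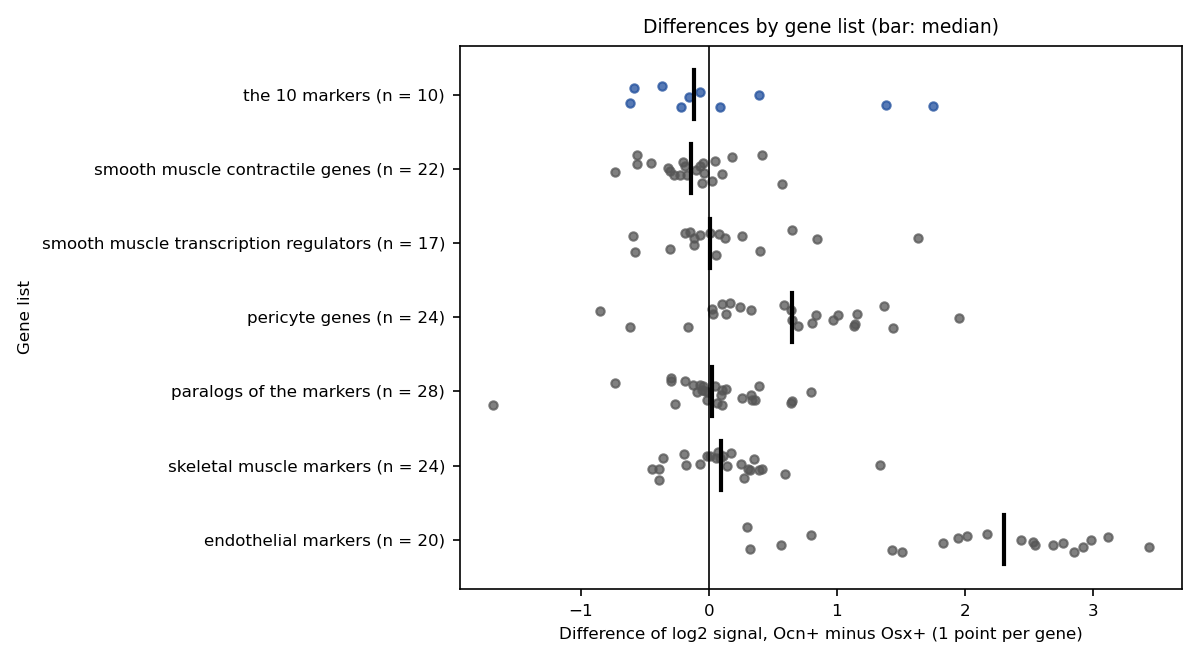
Difference of log2 signal between Ocn+ and Osx+ cells (x axis), 1 point per gene, for the 10 markers and 6 gene lists (y axis, number of genes in brackets), with the median as a bar. The medians are -0.14 for contractile genes, 0.65 for pericyte genes and 2.30 for endothelial markers, and 2 of the 10 markers, Rgs5 and Mcam, lie to the right of 1.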

How the data were processed

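The 7 samples of sorted cells were each hybridised to 1 Affymetrix mouse array. RNA was isolated with Trizol and amplified with NuGEN Ovation V2, per the labels' protocols. The authors deposited log2 values made with RMA, per the submitters' processing notes, and the software version is not given in the sources used here. RMA equalizes the distribution of all arrays, so the values hold nothing on total RNA per cell. Arrays have no read depth, and their number limits the precision.

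Of 22690 probe sets, 64 were controls, 20380 had 1 gene symbol in the platform annotation, 691 had several and 1555 had none listed, and 20351 took their current symbol through the Entrez identifier. Probe sets with several symbols or none were not used. Groups came from the sample titles. Ocn+ minus Osx+ was fitted with limma 3.58.1 (R 4.3.3; lmFit, then eBayes, no block) over all 12393 genes, 2-sided, with Benjamini-Hochberg adjustment and a threshold of 0.05. A fold is 2 to the power of the log2 difference. Intervals are 95% intervals of that fit. The fit was tested on simulated data.

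The members and lists were chosen with earlier results of these data known. The rule for named genes took all 10 markers with every probe set, from each of 11 lists the 3 genes of smallest p (up to 4 if called), and for Acta2 and Rgs5 the 5 genes of highest Pearson r. The neutrophil, osteoclast, macrophage, endothelial, osteolineage and stromal lists are given by counts. Alternatives were the replicate number as a block, each array left out, filters at the 25th percentile or median of mean signal, array weights, quantile normalization, a robust prior with trend, centring on the median, other choices of probe set, the Xist set (split at a log2 signal of 8) as a term or alone, and a threshold of 0.1.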

Additional observations from a re-analysis of the deposited data

Results flagged for a closer look

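Myh11 in Osx+ replicate 3 stood far from the other arrays of its group, at 8.52 against 5.18 to 5.51. Such a gap arises by chance in about 5% of groups of 4, and 10 markers were examined. The second Myh11 probe set was at 4.89 in that array and at 5.14 to 5.72 in the other Osx+ arrays.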

How the results depend on the processing

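Rgs5 (1.13 to 2.19), Mcam (1.03 to 2.50), Cspg4 (-0.76 to -0.42) and Tpm2 (-0.30 to -0.09) kept their sign under every alternative run for them, Rgs5 not passing the filter at the median. Of 195 member values under 20 alternatives, 181 kept sign and side of the threshold, 2 newly passed (both Mcam) and 12 changed sign. Those were Des, -0.28 to 0.82 with 1 array left out, Cnn1, -0.96 to 0.10, and Myh11, -1.02 to 0.19. Beside these, Cnn1 stood at 0.0138 with the Xist set as a term and 0.36 within the high-Xist arrays, Acta2 at 0.0135 with the mean of all probe sets and 0.25 with that of largest variance, Tagln at 0.0523 within the low-Xist arrays, and Myl9 at -0.0013 without replicate 1 of both groups (chosen after seeing the data). The median of the 10 markers ran from -0.21 to 0.12 with 1 array left out. The cause was not tested.

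Over all genes, limma called 97 with array weights, 19 within the high-Xist arrays and 0 to 3 with 1 array left out (3 without Osx+ replicate 2 and 3 without Osx+ replicate 3). Of the 10 markers, 1 (Mcam) was called with array weights and 1 (Mcam) within the high-Xist arrays. The arrays did not overlap for 2 markers with quantile normalization, 2 with the mean of all probe sets, 2 with the probe set of largest variance, 5 within the high-Xist arrays, 8 within the low-Xist arrays, 3 without replicate 1 of both groups and 1 to 3 with 1 array left out. Fewer arrays leave more room for separation. The share of all genes without overlap was taken only for the main comparison of all 7 arrays (6.90%), not under these alternatives. The counts of 5 and 8 markers within the Xist sets therefore have no share to be read against, and nothing is drawn from them.

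With the replicate number as a block, which leaves Osx+ replicate 4 no weight in the difference, limma called 0 genes and 0 markers, and the median of the markers was -0.12. Same-numbered arrays deviated together for numbers 1 (r = 0.63) and 2 (0.45) but not 3 (-0.30). Not every array correlated best with its own number. Each Ocn+ array correlated positively with the Osx+ arrays of its own Xist set and negatively with the others. The 2 arrays numbered 3 fell into different Xist sets, with a log2 Xist signal of 12.37 in Ocn+ and 5.79 in Osx+. Number 3 therefore does not join samples of the same animal. Whether numbers 1 and 2 pair the samples cannot be told from these values. Dim signals have no detection calls.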

Other observations

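Relatives of the markers from the same gene families were measured for 28 of 29 genes, 14 above 0 and 14 below, with a median difference of 0.02. The arrays did not overlap for 4 with Ocn+ below (2.53% of all genes) and for 1 with Ocn+ above (4.37% of all genes). At an unadjusted p under 0.05, limma gave 3 of the 28, 1 higher and 2 lower in Ocn+ cells, against 5.31% of all genes. None passed over all genes in limma. Rgs1, a regulator of G protein signalling of immune cells, stood at 9.29, 8.03 and 9.40 in Ocn+ cells and 11.16, 11.36, 10.05 and 9.82 in Osx+ cells. It thus lay opposite to Rgs5, with a difference of -1.69 (SE 0.51, limma adjusted p = 0.792), in the arrays where the macrophage markers were also higher. Myl12b, a nonmuscle counterpart of Myl9, stood at 13.42, 13.44 and 13.44 against 13.06, 13.09, 13.12 and 13.15, a small difference of 0.33 (SE 0.13, limma adjusted p = 0.935) without overlap. Actc1, the heart actin, is a gene outside the naming rule, picked on its values. Its log2 signal was 10.41 in Ocn+ replicate 1 and 10.38 in Osx+ replicate 1, and 6.34 to 7.48 in the other 5 arrays. In the same pair of replicate 1 arrays Des and the mean of the skeletal muscle markers were high.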
